A study of Homo sapiens with 18 samples.

Results

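MYC and 7 genes of its partner network, MAX, MNT, MXI1, MXD4, MXD3, MLX and MGA, were followed at the mRNA level in melanoma cells that overexpress PPP2R3B. These 8 genes were taken by symbol from the 58051 genes of the count table, and all 8 passed the filter on low counts in every fit. PPP2R3B encodes PR70, a regulatory subunit of the protein phosphatase PP2A. The cells were SKMEL2 and SKMEL30, NRAS-mutant human melanoma lines that had been infected with a lentiviral tet-ON pTRIPZ-PPP2R3B vector and selected with puromycin. All 18 libraries, controls included, came from cells that carry the vector. Each line gave 3 uninduced libraries, 3 libraries after 6 h of doxycycline and 3 libraries after 18 h. The later time is that of the labels, and the study's text gives an earlier hour for it. No library came from doxycycline-treated cells without the PPP2R3B insert, so an effect of doxycycline and an effect of PPP2R3B cannot be told apart. The labels number the replicates without saying whether they were separate cultures, so p-values measure the spread between these libraries, which may be technical.

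MYC is a basic helix-loop-helix leucine zipper transcription factor that drives growth, ribosome production, metabolism and cell cycle entry. It binds DNA as a dimer with MAX, at a short palindrome called the E-box. MNT, MXI1, MXD3, MXD4 and MGA compete for MAX, and their dimers recruit repressor complexes to the same sites. MLX is the related partner of the glucose sensors MLXIP and MLXIPL, and it also pairs with MNT and MXD4. PP2A is known to remove a phosphate from MYC protein and so to affect its stability, an event that RNA does not show. The measurements here concern the mRNA of the network alone.

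The libraries held 13402645 to 22383470 counts each (median 17958636). Levels are given as CPM, counts scaled to a common library size, here across all 18 libraries by the trimmed mean of M values (TMM). PPP2R3B itself lay between 17.2 and 24.4 CPM in the uninduced libraries and between 343 and 617 CPM in the induced ones, so that every library matched its label. Markers of the melanocyte lineage were present in both lines, although TYRP1 averaged 4.06 CPM in uninduced SKMEL2 and 1283 CPM in uninduced SKMEL30. The leukocyte, epithelial and fibroblast markers PTPRC, EPCAM, COL1A1 and DCN stayed at or below 1.40 CPM in every library. The keratinocyte genes KRT5 and KRT14 reached 37.5 and 26.4 CPM in replicate 3 of SKMEL30 at 6 h, against at most 8.27 and 6.76 CPM in every other library. The MYC and THBS1 changes at 6 h in SKMEL30 and the MYC value between the times are given with and without that library, and the permutation tests of SKMEL30 include it.

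On the GRCh38.p14 assembly, RefSeq places MAX at chr14:65006101-65102695, MNT at chr17:2384073-2401060 and MXI1 at chr10:110207605-110287365. MXD4 lies at chr4:2247432-2262109, MXD3 at chr5:177305499-177312752, MLX at chr17:42567100-42573203 and MGA at chr15:41621224-41769940. Promoter sequence, from 250 bases before to 50 bases after each annotated start, was at hand from RefSeq for 7 of the 8 genes. The E-box was searched as CACGTG, which reads the same on both strands. It was found in the promoters of 3 of these 7 genes, MNT, MXD4 and MLX. Of all 35116 promoter windows of that length, 7.26% held it, and of the 11725 genes tested that had a window, 12.5% did. The stretches around the motif are shown because CACGTG is the kind of sequence that dimers of this network are known to bind. All 3 lie upstream of the gene start, and capitals mark the motif.
MNT, chr17:2401218-2401283, minus strand, motif ending 187 bases before the start: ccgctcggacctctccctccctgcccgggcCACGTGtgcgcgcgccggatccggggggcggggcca
MXD4, chr4:2262312-2262359, minus strand, motif ending 232 bases before the start: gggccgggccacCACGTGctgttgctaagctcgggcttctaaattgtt
MLX, chr17:42567020-42567085, plus strand, motif ending 44 bases before the start: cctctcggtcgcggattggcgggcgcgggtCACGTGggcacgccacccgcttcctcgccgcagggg
The 3 genes with the motif did not share a direction between the lines, since MNT and MLX were higher and MXD4 was lower in SKMEL30, as described next. The windows of MAX, MXI1, MXD3 and MGA held no CACGTG. The match describes letters in the window and is no evidence of binding.

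The network differed most between the lines themselves. In uninduced cells all 8 genes differed between SKMEL30 and SKMEL2 in edgeR's quasi-likelihood test, and the 3 libraries of one line overlapped with those of the other for none of them. MYC, MNT, MXD3 and MLX were higher in SKMEL30, and MAX, MXI1, MXD4 and MGA were lower. Among all 17133 genes tested in that contrast 75.9% were called, 35.8% as higher and 40.1% as lower in SKMEL30, 77.3% had an unadjusted p under 0.05 and 78.3% had groups that did not overlap. A gene that differs between these lines is therefore the usual case. Each group holds libraries of 1 line, so the contrast describes these cultures and no wider class of melanoma. In bulk RNA, fewer cells with an RNA and less of it per cell cannot be told apart.

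**Figure D1:**
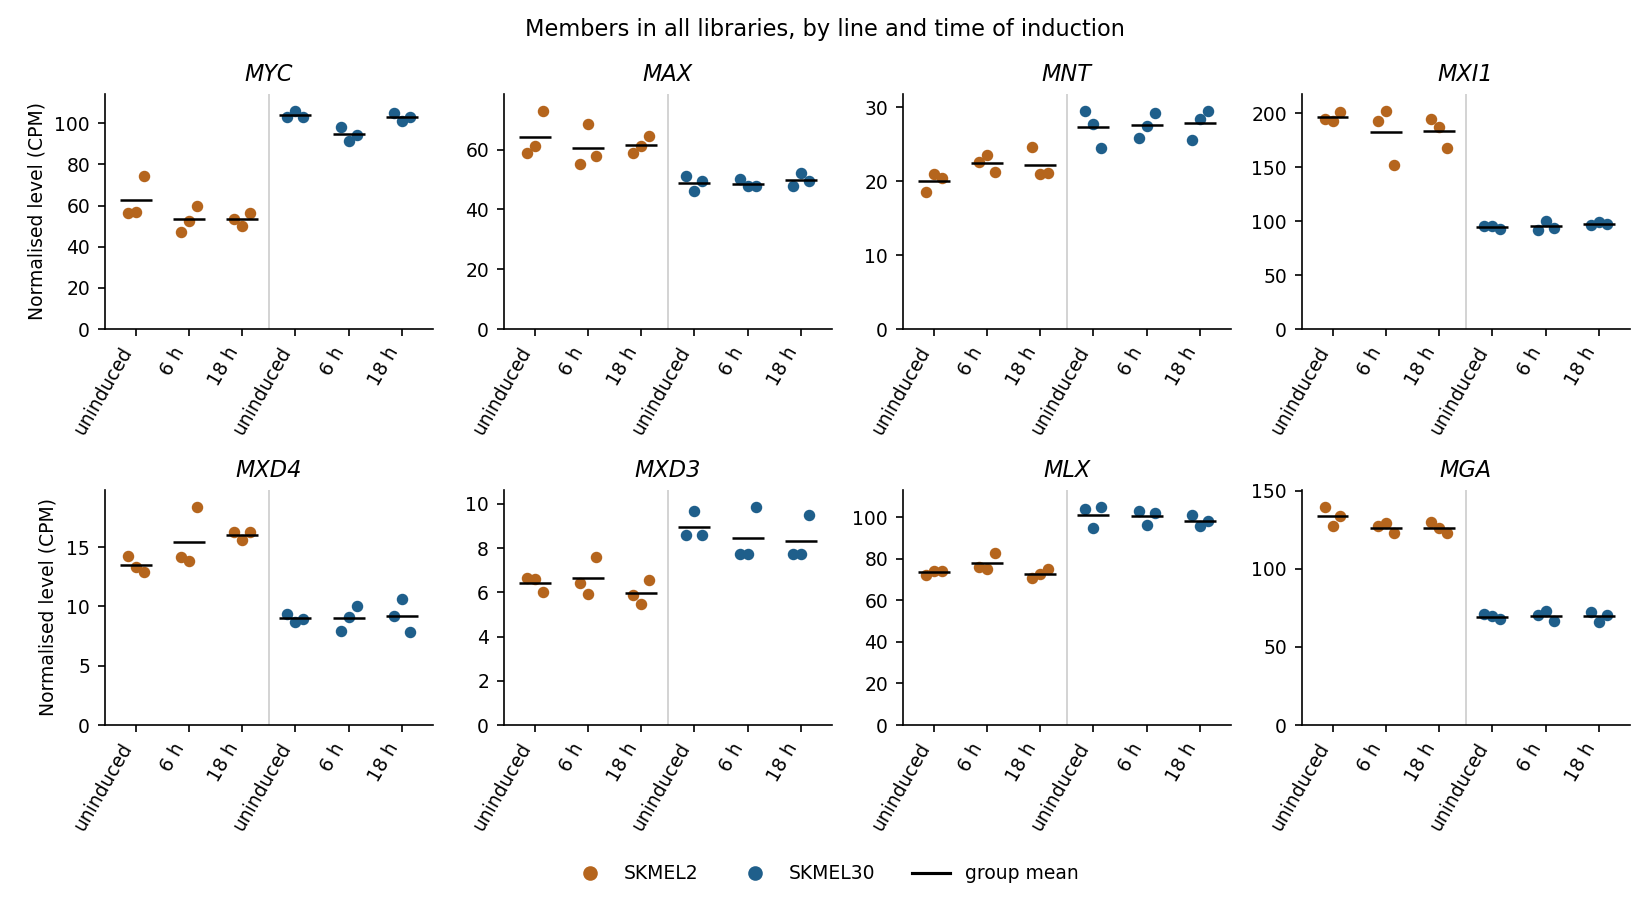
Level of the 8 genes in each of the 18 libraries, as TMM-scaled CPM on axes that start at 0. Points are libraries (3 per group), black bars are group means, SKMEL2 is brown and SKMEL30 is blue. MYC sits between 47.2 and 74.3 CPM in SKMEL2 and between 91.3 and 106 CPM in SKMEL30, and MXI1 and MGA show the opposite order.

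MYC (chr8:127735434-127742951) was at 56.6, 56.7 and 74.3 CPM in the uninduced SKMEL2 libraries and at 103, 106 and 103 CPM in those of SKMEL30. Replicate 3 of SKMEL2 stood above the other 2, and the SKMEL30 libraries lay close together. The level was 1.65-fold higher in SKMEL30 (log2 difference 0.73, SE 0.09, n = 3 and 3, adjusted p = 2.77e-07, edgeR). PVT1, the long non-coding RNA gene next to MYC, was also higher in SKMEL30, at 7.97 to 9.31 CPM against 5.37 to 6.70 CPM (log2 difference 0.49, SE 0.11, adjusted p = 0.000492, edgeR). The paralogs of MYC were almost silent, with 0 to 4 counts for MYCN and 6 to 22 counts for MYCL in any library. MYCL differed by 0.88 on the log2 scale at adjusted p = 0.0407 in edgeR, a call that was lost in DESeq2 (adjusted p = 0.0978), without a filter on low counts (adjusted p = 0.0864) and in 3 of the 6 fits that left out 1 uninduced library.

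MAX, the obligate partner, moved the other way. Its level was 58.8, 61.2 and 72.9 CPM in uninduced SKMEL2 and 51.1, 46.3 and 49.4 CPM in SKMEL30. The difference of -0.40 (log2, SE 0.08, adjusted p = 0.000212, edgeR) puts MAX in SKMEL30 at 0.760 times its level in SKMEL2. In uninduced SKMEL2 replicate 3 was the highest library for MAX, as it was for MYC. MAX shares its locus with FNTB on the opposite strand, which had 906 to 1860 counts per library against 645 to 1657 for MAX. Whether counting used strand is not given in the sources used here. Counts that are not whole arise where reads were split between genes. The MAX count was not whole in 2 of the 18 libraries, against 16 for MNT and 18 each for MXD3 and MLX. How many reads MAX and FNTB share was not tested.

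Of the antagonists, MXI1 was the most abundant and differed most between the lines. MXI1, a MAX-binding repressor of the MXD family, was at 195, 193 and 201 CPM in uninduced SKMEL2 and at 95.7, 95.4 and 93.0 CPM in SKMEL30. That is 0.482 times the level (log2 difference -1.05, SE 0.08, adjusted p = 2.11e-10, edgeR). MGA, which joins a T-box domain to the MYC-type domain and belongs to a variant Polycomb complex, followed the same order. It was at 139.5, 127 and 134 CPM in SKMEL2 and at 70.9, 69.5 and 67.6 CPM in SKMEL30 (0.520 times, log2 difference -0.94, SE 0.05, adjusted p = 1.14e-12, edgeR). MXD4, the MXD member linked to differentiated cells, was lower as well, at 8.73 to 9.36 CPM in SKMEL30 against 12.9 to 14.3 CPM (log2 difference -0.58, SE 0.12, adjusted p = 0.000156, edgeR).

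The other antagonists were higher in the line with more MYC. MNT, the broadly expressed antagonist, was at 18.5, 21 and 20.4 CPM in uninduced SKMEL2 and at 29.5, 27.8 and 24.5 CPM in SKMEL30 (1.36-fold, log2 difference 0.45, SE 0.09, adjusted p = 9.37e-05, edgeR). MXD3, the MXD member associated with proliferating cells, was at 6.03 to 6.64 CPM against 8.57 to 9.66 CPM (log2 difference 0.48, SE 0.13, adjusted p = 0.00202, edgeR). MXD3 had 97.5 to 211 counts per library and overlaps RAB24 on its own strand (289 to 811 counts) and PRELID1 on the other strand (2941 to 7566 counts). What the overlap adds to its counts was not tested. MXD1, a repressor outside the 8, was also higher in SKMEL30, by 0.56 on the log2 scale (SE 0.12, adjusted p = 0.000236, edgeR).

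MLX was at 72.2, 74.2 and 74.3 CPM in uninduced SKMEL2 and at 104, 94.8 and 105 CPM in SKMEL30, 1.37-fold higher (log2 difference 0.46, SE 0.05, adjusted p = 9.58e-08, edgeR). Its partner MLXIP, a sensor of glucose-derived metabolites, was lower in SKMEL30, at 169 to 173 CPM against 216 to 219 CPM (log2 difference -0.34, SE 0.04, adjusted p = 8.82e-07, edgeR). The liver-type partner MLXIPL had 0 to 8 counts in any library. MLX overlaps PSMC3IP on the opposite strand, with 290 to 565 counts against 1239 to 2184 for MLX. The 8 calls between the lines held in all 96 alternative settings.

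**Figure D2:**
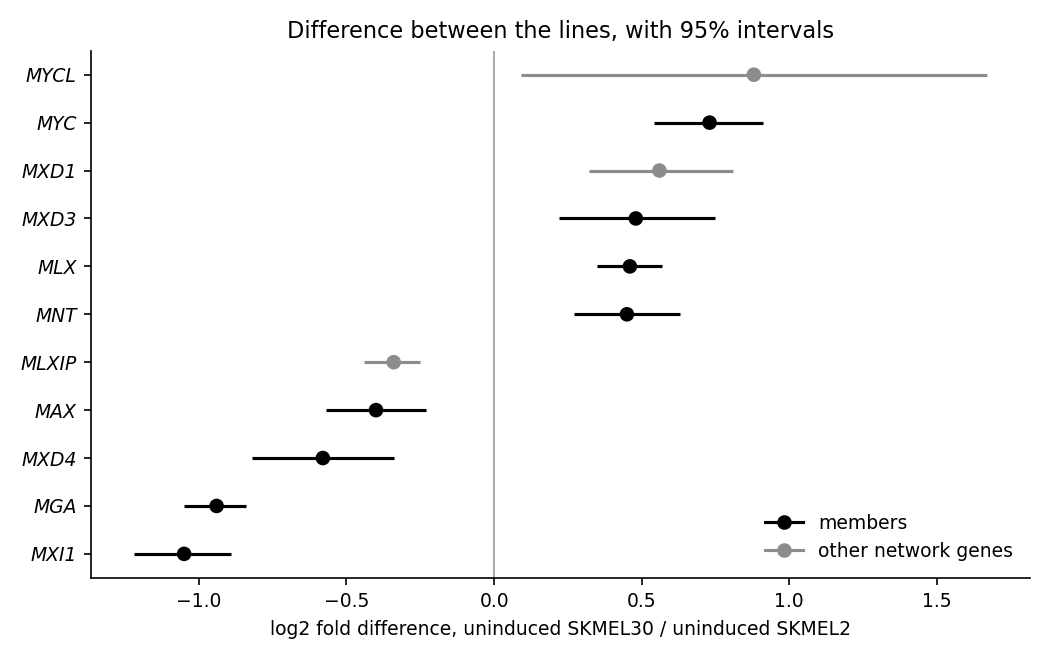
Difference between uninduced SKMEL30 and uninduced SKMEL2 for the 8 genes (black) and 3 other network genes (grey), as log2 fold difference on the x axis with 95% intervals. Values right of 0 are higher in SKMEL30. The intervals of all 11 genes leave out 0, from MXI1 at -1.05 to MYCL at 0.88.

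Levels of different genes were compared per kilobase of the main transcript. In uninduced SKMEL2 MXI1 led at 56.7 ± 1.24 CPM per kilobase (SD, n = 3). MAX (32.0 ± 3.77) and MLX (31.2 ± 0.514) followed with ranges that overlapped, then MYC at 16.8 ± 2.74. MGA (9.16 ± 0.425), MXD3 (6.03 ± 0.324), MNT (4.06 ± 0.266) and MXD4 (3.49 ± 0.179) came last, each range clear of the next.

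In uninduced SKMEL30 the order changed at the top. MLX led at 42.9 ± 2.35 CPM per kilobase, and MYC (27.9 ± 0.438) overlapped with MXI1 (27.3 ± 0.428). MAX was at 24.4 ± 1.21, MXD3 at 8.38 ± 0.579, MNT at 5.54 ± 0.515, MGA at 4.76 ± 0.111 and MXD4 at 2.33 ± 0.0827. MYC thus stood below MAX in SKMEL2 and above it in SKMEL30 on this scale. The order depends on the length used: with all exons of a gene counted together, MAX and MYC overlapped in SKMEL2 at 10.3 and 10.2 CPM per kilobase, and MXD3 dropped to the last place there at 1.36.

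The ratio of MYC to its partners, in levels per kilobase, had a higher mean in uninduced SKMEL30 than in uninduced SKMEL2 throughout. It was set against MAX and MXI1, which were lower in SKMEL30, against MNT, which was higher, and against a sum of antagonists. Against MXI1 it was 0.270, 0.274 and 0.344 in uninduced SKMEL2 and 0.999, 1.03 and 1.03 in SKMEL30. Against MAX it was 0.524 ± 0.0252 and 1.15 ± 0.0759 (SD, n = 3). Against the sum of 6 antagonists (MXI1, MXD1, MXD3, MXD4, MNT and MGA) it was 0.209 ± 0.0318 and 0.562 ± 0.0136. With all exons of each gene as the length, the ratio to MAX was 0.993 and 2.18 and that to the 6 antagonists 0.221 and 0.630. None of these ratios overlapped between the lines in uninduced cells. Against MNT, which like MYC was higher in SKMEL30, the ratio was 4.14 ± 0.631 and 5.06 ± 0.484, and the ranges overlapped. These ratios follow from the levels above, were not tested on their own and say nothing of protein.

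**Figure D3:**
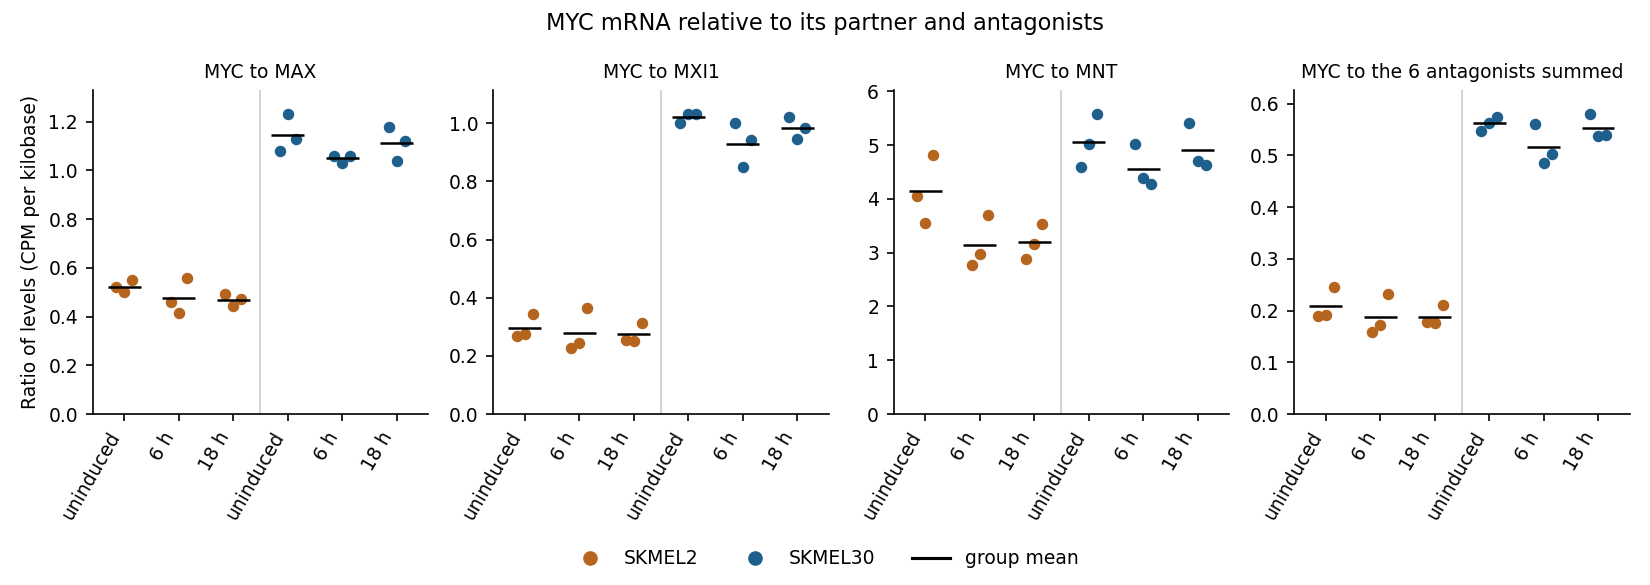
MYC level divided by that of MAX, MXI1, MNT and the sum of 6 antagonists, in CPM per kilobase, for each library. Points are libraries, black bars are means of 3, brown is SKMEL2 and blue is SKMEL30. The MYC to MXI1 ratio lies between 0.228 and 0.366 in SKMEL2 and between 0.849 and 1.03 in SKMEL30, whereas the MYC to MNT ratio of the uninduced libraries overlaps.

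Induction of PPP2R3B, the comparison the study was built for, gave no call in the network. None of the 8 genes was called in any of the 4 comparisons with uninduced cells, at 6 h or 18 h in either line. Of all genes tested by edgeR, 0.0124% were called at each time in SKMEL2, 0.206% at 6 h (0.0932% higher, 0.113% lower) and 0.293% at 18 h (0.173% higher, 0.120% lower) in SKMEL30, so few genes of any kind passed. At an unadjusted p under 0.05 the count of members was 0 of 8 at 6 h and 1 of 8 at 18 h in SKMEL2, and 1 of 8 and 0 of 8 in SKMEL30. Over all genes those shares were 3.37% and 4.65% in SKMEL2 and 6.44% and 9.14% in SKMEL30. DESeq2 also called 0 of 8 in all 4.

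**Figure D4:**
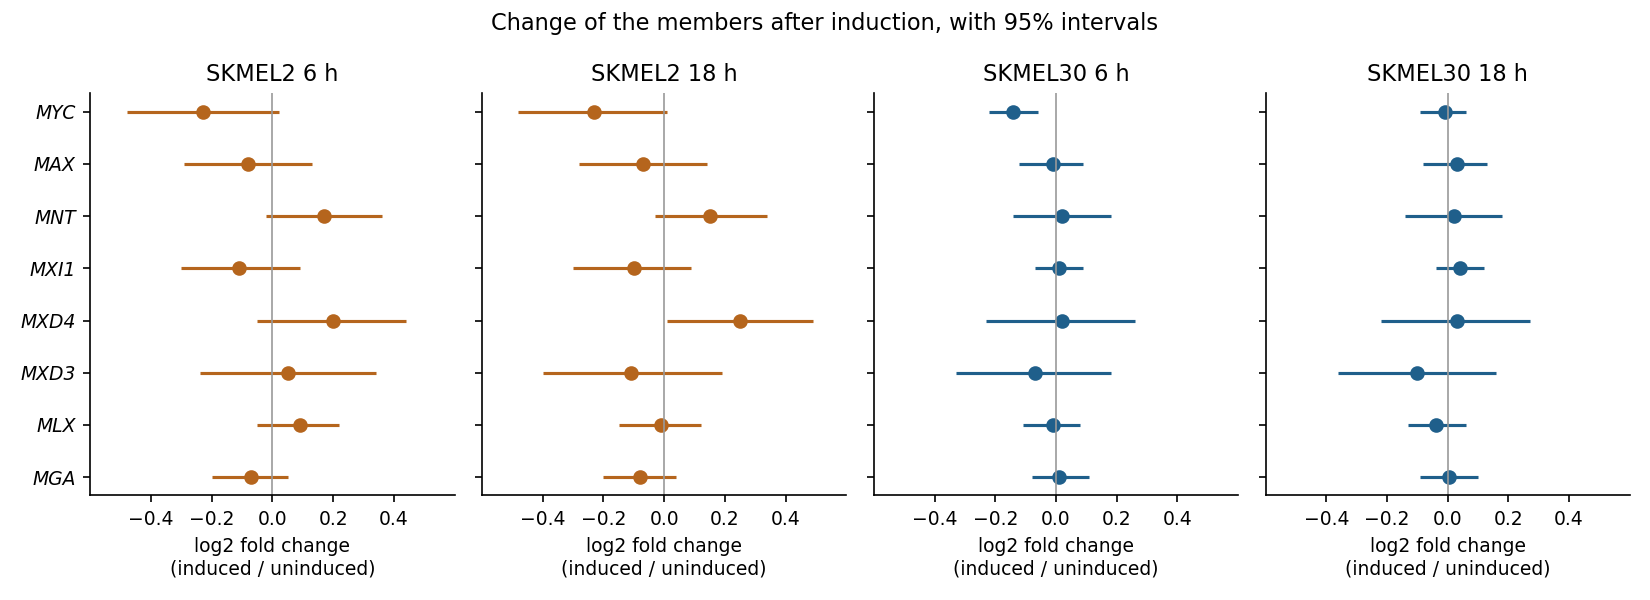
Log2 fold change of the 8 genes after 6 h and 18 h of doxycycline against uninduced cells of the same line, with 95% intervals from edgeR. Brown is SKMEL2, blue is SKMEL30, and the vertical line marks 0. Only MYC in SKMEL30 at 6 h and MXD4 in SKMEL2 at 18 h have intervals that leave out 0, and neither passed the adjustment over all genes.

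The MYC values after induction were at or under 0 in both lines. In SKMEL2 it was at 47.2, 52.7 and 59.8 CPM at 6 h and at 53.5, 50.3 and 56.3 CPM at 18 h, against 56.6, 56.7 and 74.3 CPM before. The 18 h libraries all lay under the uninduced ones, while the 6 h libraries overlapped with them. The log2 change was -0.23 at both times (SE 0.11 at each, 95% interval -0.48 to 0.02 at 6 h and -0.48 to 0.01 at 18 h, adjusted p = 0.989 and 0.987, edgeR). Both values lean on replicate 3 of the uninduced SKMEL2 cells, and without it the change was -0.09 at 6 h and -0.09 at 18 h (called at neither time by edgeR). Each induced library lay under the uninduced library of the same number, although the labels do not say that the numbers mark pairs.

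In SKMEL30 MYC was at 98.3, 91.3 and 94.2 CPM at 6 h, under all 3 uninduced libraries at 103, 106 and 103 CPM. The change was -0.14 (SE 0.04, 95% interval -0.22 to -0.06, unadjusted p = 0.00209), or 0.909 times the uninduced level, and the adjusted p over 15026 genes was 0.337 in edgeR. It was -0.14 (adjusted p = 0.458, edgeR) without replicate 3 at 6 h, the library with the most keratin counts. At 18 h MYC was back at 105, 101 and 103 CPM, with a log2 change of -0.01 (SE 0.04, 95% interval -0.09 to 0.06, adjusted p = 0.957, edgeR). Between 18 h and 6 h it was 0.12 higher (SE 0.04, unadjusted p = 0.00430, adjusted p = 0.765, edgeR), and the groups did not overlap. Without replicate 3 at 6 h that value was 0.13 (adjusted p = 0.829, edgeR). Among the alternative settings the 6 h value was called only without a filter on low counts (adjusted p = 0.0461), a setting that also raised the count of genes called from 31 to 321.

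The intervals bound what these libraries allow for MYC mRNA. In SKMEL30 at 18 h a change beyond -0.09 or 0.06 on the log2 scale lies outside the 95% interval, and in SKMEL2 a fall of up to 0.48 stays within it. The vector encodes PR70 with an N-terminal Myc epitope tag, and whether reads over the tag were counted to MYC was not tested. The highest MYC level of each line was in an uninduced library, in SKMEL30 at 106 CPM against 105 CPM at 18 h. These levels do not test the tag.

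MAX passed no test after induction. In SKMEL2 it was at 55.2, 68.7 and 58.0 CPM at 6 h and at 58.8, 61.1 and 64.6 CPM at 18 h, with log2 changes of -0.08 (SE 0.10) and -0.07 (SE 0.10), and 3 of the 6 induced libraries lay below all uninduced ones. In SKMEL30 the 6 induced libraries ran from 47.7 to 52.3 CPM, against 46.3 to 51.1 CPM uninduced, with changes of -0.01 and 0.03 (SE 0.05 at each time). The 95% intervals of the SKMEL30 values reached no further than -0.12 and 0.13.

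Among the antagonists, MNT and MXD4 had the highest positive values in SKMEL2. MNT was at 22.6, 23.5 and 21.3 CPM at 6 h, above all 3 uninduced libraries (18.5, 21 and 20.4 CPM), and at 24.6, 21 and 21.1 CPM at 18 h. The log2 changes were 0.17 (SE 0.09, adjusted p = 0.989) and 0.15 (SE 0.09, adjusted p = 0.987) in edgeR. MXD4 was at 14.2, 13.8 and 18.4 CPM at 6 h and at 16.3, 15.6 and 16.3 CPM at 18 h, against 14.3, 13.3 and 12.9 CPM uninduced. At 18 h its libraries lay above all uninduced ones, with a change of 0.25 (SE 0.11, 95% interval 0.01 to 0.49, unadjusted p = 0.0435, adjusted p = 0.987, edgeR). In SKMEL30 neither gene showed this, with changes of 0.02 for both at 6 h and of 0.02 (MNT) and 0.03 (MXD4) at 18 h.

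MXI1 was uneven in the induced SKMEL2 libraries, at 193, 202 and 152 CPM at 6 h and at 195, 187 and 168 CPM at 18 h. In each of those groups replicate 3 was the lowest library, and the changes were -0.11 and -0.10 (SE 0.09 at each time). In SKMEL30 MXI1 ran from 91.5 to 100.3 CPM in the induced libraries, with changes of 0.01 and 0.04 (SE 0.04 at each time). The 18 h libraries there all lay above the uninduced ones, by an amount that missed the test (adjusted p = 0.794, edgeR). MXD3 stayed within -0.11 to 0.05 in the 4 comparisons (SE 0.12 to 0.14), MGA within -0.08 to 0.01 (SE 0.04 to 0.06) and MLX within -0.04 to 0.09 (SE 0.04 to 0.06).

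Groups that do not overlap can be counted without a model. Against uninduced cells, 2 of 8 members did so in SKMEL2 at 6 h (MNT and MLX, both higher), where 6.80% of all genes did. At 18 h it was 2 of 8 (MYC lower, MXD4 higher), where 14.3% of all genes did. In SKMEL30 it was 1 of 8 at each time, MYC lower at 6 h and MXI1 higher at 18 h, where 11.3% and 16.0% of all genes did. With 8 genes a count of 1 is what the SKMEL30 shares give, and a count of 2 is too small to set the SKMEL2 members apart.

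The 6 induced libraries of a line were also set against its 3 uninduced ones, gene by gene, in 16 two-sided exact permutation tests, which cannot go below p = 0.0119. These p-values are not adjusted for the 16 tests and are given as a description. Two-sided p was 0.0357 for MNT (0.16 higher on the log2 scale, above all uninduced libraries in 5 of 6 induced ones) and 0.0476 for MGA (a log2 difference of -0.08, under all uninduced libraries in 4 of 6), both in SKMEL2. With CPM of library totals the exact permutation p for MGA was 0.107. For MYC in SKMEL2 the difference was -0.22 (exact permutation p = 0.0714, under all uninduced libraries in 5 of 6), and for MXD4 it was 0.22 (exact permutation p = 0.0714). Every test in SKMEL30 gave an exact permutation p of 0.155 or more.

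The lines were compared in their response as well, in a fit of all 18 libraries. The MYC response differed by -0.10 at 6 h (SKMEL2 minus SKMEL30, SE 0.12, adjusted p = 0.922, edgeR) and by -0.22 at 18 h (SE 0.12, 95% interval -0.48 to 0.04, adjusted p = 0.895, edgeR). No member was called in either interaction, where 0% and 0.00584% of all genes were, and 842 and 884 genes, 4.91% and 5.16%, had an unadjusted p under 0.05. Between 18 h and 6 h no member was called in SKMEL2 or SKMEL30, where 0% and 0.0200% of all genes were. In SKMEL2 that comparison called 0 genes in edgeR, 418 (2.59%) had an unadjusted p under 0.05, and DESeq2 called 5. The groups of the 2 times did not overlap for 1 of 8 members in each line, MLX lower at 18 h in SKMEL2 and MYC higher at 18 h in SKMEL30, next to 7.85% and 11.1% of all genes. In SKMEL30 MYC was the 1 member of 8 with an unadjusted p under 0.05 there, next to 5.56% of all genes.

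The genes that act on MYC protein were looked at for the same reason, as PP2A works at that step. Of 22 listed genes, 22 were tested and 0 were called after induction in any of the 4 comparisons. Of all genes, 0.0124% were called at each time in SKMEL2, and 0.206% at 6 h and 0.293% at 18 h in SKMEL30. A count of 0 therefore does not set the list apart. List medians were -0.01 at both times in SKMEL2, and -3.2e-03 at 6 h and -0.01 at 18 h in SKMEL30. Between the uninduced lines 19 of 22 were called, 12 higher and 7 lower in SKMEL30, a share of 86.4% next to 75.9% of all genes, with a median of 0.19 against -0.05 over all genes. SKP2, a ubiquitin ligase subunit that acts on MYC, was 1.81 higher on the log2 scale in SKMEL30 (22.6 against 79.6 CPM, SE 0.08, adjusted p = 2.86e-14, edgeR). EYA1, a phosphatase of the eyes absent family, was 3.32 lower by the same measure, at 43.1 CPM in SKMEL2 and 4.30 CPM in SKMEL30.

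Further genes of the PP2A to MYC axis were picked after their values were seen. PPP2R5A, the PP2A subunit known to bring the phosphatase to MYC, was at 51.5 ± 2.57 CPM in uninduced SKMEL2 and 59.7 ± 0.534 CPM in SKMEL30 (log2 difference 0.21, SE 0.05, adjusted p = 0.000648, edgeR). FBXW7, the ubiquitin ligase subunit that recognises phosphorylated MYC, was at 29.6 ± 0.712 and 18.6 ± 0.908 CPM (log2 difference -0.68, SE 0.07, adjusted p = 2.93e-08, edgeR). The PP2A inhibitor SET was at 603 ± 19.7 and 706 ± 22.7 CPM (log2 difference 0.23, SE 0.04, adjusted p = 5.28e-05, edgeR). After induction the log2 values of PPP2R5A ran from -0.07 to 0.04 and those of FBXW7 from -0.01 to 0.08 over the 4 comparisons, with no call.

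Of 20 listed genes whose proteins work with MYC on chromatin, 14 were called between the lines, 4 higher and 10 lower in SKMEL30, with a median of -0.13. That share lay under the 75.9% of all genes. The deacetylase HDAC1 was higher in SKMEL30 (118 against 199.9 CPM, log2 difference 0.77, SE 0.05, adjusted p = 1.51e-11, edgeR) and its paralog HDAC2 was lower (232 against 145 CPM, log2 difference -0.68, SE 0.05, adjusted p = 4.68e-11, edgeR). After induction 0 of 20 were called in any comparison, next to 0.0124% to 0.293% of all genes. The values of single genes ran from -0.15 to 0.12.

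Genes known as MYC targets were read for the same contrasts. Of 33 nucleolar and ribosome biogenesis genes, 16 were higher and 10 lower in SKMEL30, a called share of 78.8% next to 75.9% of all genes. PES1, a ribosome assembly factor, was higher (55.2 against 165 CPM, log2 difference 1.58), and POLR1B, an RNA polymerase I subunit, was lower (220.3 against 90.4 CPM, log2 difference -1.29). Of 31 metabolic targets, 19 were higher and 6 lower, 80.6% in all next to 75.9%, with a median of 0.29. Against that direction stood ODC1, the first enzyme of polyamine synthesis (224 against 104 CPM, log2 difference -1.10), and the nucleoside transporter SLC29A2 (10.8 against 1.80 CPM, log2 difference -2.58). Of 16 cell cycle targets, 11 were higher and 3 lower, 87.5% in all next to 75.9%, with a median of 0.37. Those with the smallest p in edgeR were the replication helicase subunits MCM5 (57.0 against 185 CPM, 1.69) and MCM4 (197 against 353 CPM, 0.84). Single genes of that list ran from -2.86 to 1.69 on the log2 scale.

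Of 13 tested genes that MYC is known to repress, 10 were higher and 1 was lower in SKMEL30, with a median of 0.70. That is 84.6% called, next to 75.9% of all genes, of which 35.8% were called higher and 40.1% lower. CDKN1A, the cyclin-dependent kinase inhibitor p21, was 2.55 higher on the log2 scale (5.59 against 32.7 CPM, SE 0.08, adjusted p = 7.44e-16, edgeR), and CCND1, cyclin D1, was 0.77 higher (831 against 1412 CPM, SE 0.04, adjusted p = 2.65e-12, edgeR). The line with more MYC mRNA had higher levels for most listed activated targets and for most listed repressed genes alike. The medians of both kinds of list lay above that of all genes, -0.05.

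The E-box shares of these lists are given as sequence facts only. CACGTG was in 46.2% of the promoters of the nucleolar list (12 of 26), 48.0% of the metabolic list (12 of 25) and 41.7% of the cell cycle list (5 of 12), against 2 of 10 in the repressed list and 12.5% of genes tested.

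After induction a handful of listed genes passed the test, all in SKMEL30. THBS1, the matrix glycoprotein thrombospondin 1, fell from 258, 242 and 243 CPM to 208, 199 and 189.9 CPM at 6 h and to 204, 192 and 203 CPM at 18 h. The log2 changes were -0.32 (SE 0.04, adjusted p = 0.000928) and -0.31 (SE 0.04, adjusted p = 0.00103) in edgeR. Without replicate 3 at 6 h the 6 h change was -0.29 (adjusted p = 0.00828, edgeR). In SKMEL2 THBS1 went from 176, 226 and 235 CPM to 138, 177 and 181 CPM at 6 h and to 144, 167 and 179.7 CPM at 18 h, with changes of -0.36 (adjusted p = 0.989) and -0.38 (adjusted p = 0.987) that did not pass. The SE in SKMEL2 was 0.12 at each time.

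CCND1 fell in SKMEL30 at 18 h, from 1399, 1415 and 1421 CPM to 1207, 1239 and 1255 CPM (log2 change -0.20, SE 0.02, adjusted p = 0.000936, edgeR), after 1380, 1411 and 1384 CPM at 6 h. It was also called between 18 h and 6 h (-0.17, adjusted p = 0.0287, edgeR), a call lost in 5 of 6 fits that left out 1 library. PKM, the pyruvate kinase of glycolysis, rose at 18 h from 3136, 3197 and 3204 CPM to 3422, 3578 and 3529 CPM (log2 change 0.14, SE 0.02, adjusted p = 0.0250, edgeR). The PKM call was lost in 4 of 6 fits that left out 1 library. All 3 genes lost their calls in SKMEL30 when the lines shared a single fit, with adjusted p between 0.252 and 1.00 in edgeR. Both THBS1 and CCND1 stand in the list of genes that MYC represses, and 2 of its 13 tested genes were called lower at 18 h against 0.120% of all genes. Most of that list went the other way at 18 h in SKMEL30, with 9 of 13 higher, 4 lower and a median of 0.03. Of the 31 metabolic targets, PKM was the only 1 called at 18 h in SKMEL30, 3.23% next to 0.293% of all genes. There 9 of the 31 were higher and 22 lower, with a median of -0.02. Both lists were chosen with earlier results of these data known, so their shares are a description and no test.

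None of the cell cycle targets passed the test at 18 h. In SKMEL30, 14 of 15 tested genes had a negative value, whereas 50.3% of all genes had a positive one. The median was -0.10 next to 6.6e-04 for all genes. By edgeR 6 of the 15 had an unadjusted p under 0.05, next to 9.14% of all genes. None was called, next to 0.293% of all genes. The list was chosen with earlier results of these data known, so these shares are a description. E2F1, the transcription factor of S phase entry, was at 88.0, 87.7 and 87.8 CPM against 93.1, 95.4 and 100 CPM (log2 change -0.13, SE 0.04, adjusted p = 0.289, edgeR). The mitotic kinase AURKB was at 43.8, 42.1 and 46.1 CPM against 49.1, 47.7 and 50.6 CPM (-0.16, SE 0.05, adjusted p = 0.311, edgeR). In SKMEL2 13 of 16 were negative at 18 h, with a median of -0.06. There 0 of 16 had an unadjusted p under 0.05 in edgeR, next to 4.65% of all genes. At 6 h the medians were 2.0e-04 in SKMEL2 and -0.01 in SKMEL30.

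The glucose-sensing targets of MLX were read because MLX is a member. TXNIP, the arrestin-like inhibitor of glucose uptake, was at 66.3, 63.8 and 66.2 CPM at 18 h in SKMEL30 against 59.8, 55.1 and 55.3 CPM uninduced (log2 change 0.21, SE 0.04, adjusted p = 0.0802, edgeR). DESeq2 called it there (adjusted p = 0.0456). In SKMEL2 it was at 29.8, 25.6 and 24.4 CPM against 24.5, 17.5 and 15.3 CPM (0.49, SE 0.20, adjusted p = 0.987, edgeR). Its relative ARRDC4 was at 18.9, 17.9 and 18.1 CPM at 18 h in SKMEL2 against 14.4, 13.2 and 12.2 CPM, groups that did not overlap (0.47, SE 0.13, adjusted p = 0.859, edgeR). In SKMEL30 ARRDC4 stood at 38.0, 39.1 and 45.0 CPM against 35.1, 33.2 and 35.3 CPM (0.24, SE 0.06, adjusted p = 0.184, edgeR). The list as a whole had a median of 0.19 in SKMEL2 and -0.03 in SKMEL30 at 18 h. At that time edgeR called 0 of its tested genes, next to 0.0124% of all genes in SKMEL2 and 0.293% in SKMEL30. Between the uninduced lines TXNIP and ARRDC4 were higher in SKMEL30 by 1.58 and 1.39.

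**Figure D5:**
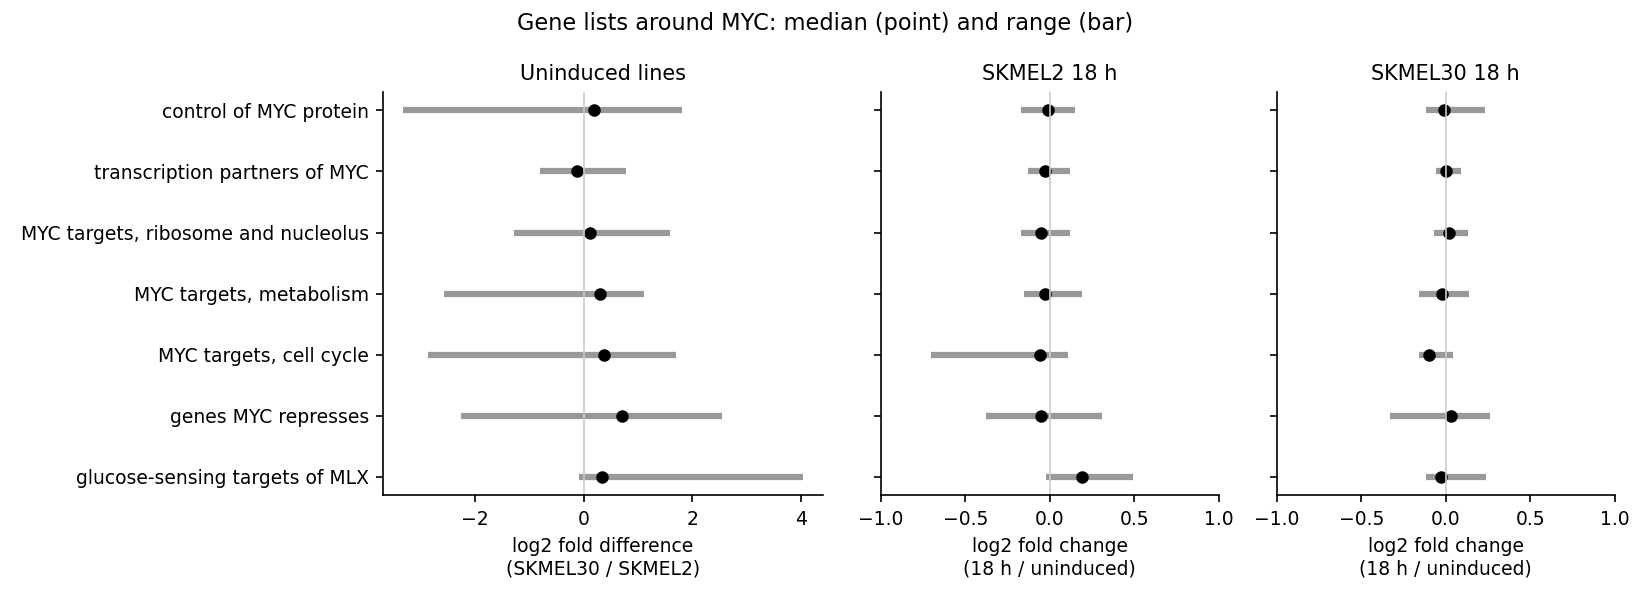
Gene lists around MYC, with the median log2 value of each list as a point and its lowest and highest gene as the ends of the bar. The panels show uninduced SKMEL30 against SKMEL2 and the 18 h changes of SKMEL2 and SKMEL30, and the x axis of the left panel is wider than the others. Medians after induction lie between -0.10 and 0.19, while those between the lines run from -0.13 to 0.70.

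The genes most like MYC were sought across the 18 libraries, after the mean of each line was removed. Pearson's r of log2 CPM was 0.89 for TXNDC11, 0.87 for LEF1, 0.86 for CCDC86, 0.85 for SHROOM2 and 0.85 for the gene ENSG00000273387, out of 14078 genes ranked. LEF1, a transcription factor of the WNT pathway, was at 331 CPM in the uninduced SKMEL2 replicate that also had the highest MYC, against 243 to 279.5 CPM in the other 8 SKMEL2 libraries. These correlations are a description over libraries of the same lines, and they were higher within SKMEL2, where r was 0.90 to 0.95, against 0.27 to 0.79 in SKMEL30. Within the network MAX was the nearest to MYC at 0.57 (0.65 in SKMEL2 and 0.09 in SKMEL30). PVT1, the neighbour of MYC, was at -0.13 (-0.02 in SKMEL2 and -0.59 in SKMEL30). MNT was at -0.33 (-0.40 and -0.19), and PPP2R3B was at -0.51 (-0.60 and -0.49).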

How the data were processed

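RNA of the melanoma lines was sequenced in 18 libraries as paired reads of 43 bases. The authors deposited RSEM expected counts per gene, made from reads aligned with STAR to the human GRCh38 transcriptome of Ensembl. The submitters' processing notes name Trimmomatic 0.36, cutadapt 1.5, STAR 2.2.2a, SAMtools 1.8 and RSEM 1.3.0. The methods of the study give other versions of cutadapt and STAR and do not name Trimmomatic. The strand setting is not given in the sources used here. Of the values, 12.3% were not whole, since RSEM can split a read that matches more than 1 gene, and all were rounded before testing. Symbols were matched for 95.8% of the identifiers.

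Changes against uninduced cells and between times were fitted per line (9 libraries) with edgeR 4.0.16 in R 4.3.3, by the quasi-likelihood test with filterByExpr, TMM factors and Benjamini-Hochberg adjustment over all genes tested (16120 in SKMEL2, 15026 in SKMEL30). All 18 libraries entered the contrast of the lines and of their responses (17133 genes). Genes were called at an adjusted p under 0.05. DESeq2 1.42.0, other scaling factors, filters, sample sets, the replicate block and leaving out each library were alternatives. Levels per kilobase used the MANE Select transcript (for MGA, the longest coding transcript). The length of all exons was added after seeing the data. The study used DESeq2. Replicate numbers were not taken as pairs.

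The members and gene lists were chosen with earlier results of these data known. Named were the members, their family, PVT1, PPP2R3B, and from each list the genes called or with the smallest p in a comparison. The text prints a part of these, and the further genes of the PP2A to MYC axis were added after their values were seen. The scripts were tested on simulated data. With 3 libraries a group, a permutation of 3 against 3 cannot go below p = 0.1.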

Additional observations from a re-analysis of the deposited data

How the results depend on the processing

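All 8 calls between the lines held under every alternative run. Of 1008 settings of the members' log2 changes, 932 kept direction and side of the threshold. Of the 844 settings of named list and network genes, 813 did, 20 lost a call, 11 gained one and 0 reversed. The reversals of members include main values of -0.10, for MYC in the difference of the 6 h responses and for MAX in that of the 18 h responses. The cause of the reversals was not tested.

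The number of genes called varied. In SKMEL2 it was 8 at 6 h and 11 at 18 h with DESeq2, 158 and 168 without a filter on low counts, 6 and 7 with all 18 libraries in a single fit, and at 18 h 9 with only the groups compared. In SKMEL30 it was 321 at 6 h and 359 at 18 h without a filter, 5 and 9 in the single fit, and 71 at 18 h with DESeq2. Between 18 h and 6 h it was 5 with DESeq2 and 135 without a filter in SKMEL2. In SKMEL30 it was 12 with DESeq2, 197 without a filter, 5 where each library needed 10 counts or more, and 0 with only the groups compared or in the single fit. Without a filter 1 member was called, MYC in SKMEL30 at 6 h (-0.14, adjusted p = 0.0461, edgeR). Leaving out 1 library at a time gave 2 to 5 genes in SKMEL2 at 6 h, 16 to 33 in SKMEL30 at 6 h and 25 to 30 at 18 h, and between the times 0 to 1 in SKMEL2 and 0 to 5 in SKMEL30.

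The labels do not say that a replicate number marks a shared culture or day. Deviations of same-numbered libraries correlated at -0.13 to 0.17 in SKMEL2 (3 of 9 pairs over 0.1) and at -0.02 to 0.12 in SKMEL30 (1 of 9). By mean correlation 3 of 9 libraries in SKMEL2 and 7 of 9 in SKMEL30 were nearest to their own number, a hint from the data and not from the design. With the replicate block, 7 genes were called in SKMEL2 at 18 h and 16 between the times in SKMEL30, and no member call changed. MYC was then at -0.23 and -0.22 in SKMEL2 and at -0.14 and -0.01 in SKMEL30. THBS1 in SKMEL2, not called without the block, was at -0.36 (adjusted p = 0.0932, edgeR) at 6 h and at -0.37 (adjusted p = 0.0428, edgeR) at 18 h with it. Its libraries with the same number were lower than the uninduced one in every case.

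Between 18 h and 6 h in SKMEL2, MYC turned from -7.6e-05 to 0.01 without a filter, in the single fit and with the replicate block, to 2.4e-03 with at least 10 counts and to 3.9e-04 with only the groups compared. MGA turned to 2.8e-03 there without a filter. The MXD3 difference of the 18 h responses turned to 1.7e-03 with DESeq2 and with RLE factors, 1.2e-03 with only the groups compared and 0.01 with the block.

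Leaving out 1 library at a time moved members across 0 within these log2 ranges. In SKMEL2 at 6 h, MAX ran from -0.18 to 0.02 and MXD3 ran from -0.06 to 0.13. In SKMEL2 at 18 h, MAX ran from -0.12 to 0.03 and MLX ran from -0.03 to 3.7e-03. In SKMEL30 at 6 h, MAX ran from -0.05 to 0.02, MNT ran from -0.05 to 0.08, MXI1 ran from -0.03 to 0.03, MXD4 ran from -0.07 to 0.09, MLX ran from -0.06 to 0.02 and MGA ran from -0.02 to 0.05. In SKMEL30 at 18 h, MYC ran from -0.03 to 1.9e-03, MAX ran from -0.01 to 0.06, MNT ran from -0.04 to 0.08, MXD4 ran from -0.08 to 0.13 and MGA ran from -0.02 to 0.04. Between the times in SKMEL2, MYC ran from -0.09 to 0.10, MAX ran from -0.06 to 0.11, MNT ran from -0.10 to 0.02, MXI1 ran from -0.10 to 0.08, MXD4 ran from -0.03 to 0.20 and MGA ran from -0.03 to 0.01. Between the times in SKMEL30, MNT ran from -0.04 to 0.06, MXD4 ran from -0.09 to 0.11, MXD3 ran from -0.14 to 0.12 and MGA ran from -0.04 to 0.03. For the difference of the 6 h responses, MYC ran from -0.20 to 0.04 and MAX ran from -0.16 to 0.03. For the difference of the 18 h responses, MAX ran from -0.16 to 0.01, MXD3 ran from -0.07 to 0.11 and MLX ran from -9.1e-04 to 0.07. At this depth MXD3 and MXD4 had the lowest counts of the members, and their SEs were the widest in SKMEL30 but not apart from those of MYC and MAX in SKMEL2, where MXD4 had 0.11, MYC 0.11 and MAX 0.10.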
